A study of Mus musculus with 10 samples.

Results

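The expression of 10 genes by which astrocytes are commonly recognised was followed in RNA-seq of the prefrontal cortex (PFC) of *Zbtb16* KO and WT mice. The 10 genes, out of 22000 in the count table, were *Kcnj10*, *Aqp4*, *Gja1*, *Gjb6*, *Slc1a2*, *Slc1a3*, *Gfap*, *Aldoc*, *Aldh1l1* and *Etnppl*. They were chosen by name, with their KO and WT counts already known and with an eye to genes that moved in opposite directions. Their differences between the genotypes are therefore a description, and nothing is supported with them.

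The KO mice were homozygous for *lu*, a nonsense point mutation of *Zbtb16*, in the strain B6.C3-Zbtb16lu/J, and the gene was altered in every cell rather than in astrocytes. The WT mice did not carry *lu*. Both groups held 5 mice that the labels describe as male and 7 weeks old, and each mouse gave 1 stranded mRNA library. Since the tissue was not sorted, fewer cells of a type and less RNA per cell cannot be told apart.

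Astrocytes take up the potassium and glutamate that active neurons release, move water at their endfeet, and exchange ions and metabolites with each other through gap junctions. Kcnj10 (Kir4.1) is their main inwardly rectifying potassium channel, Slc1a2 (GLT-1) and Slc1a3 (GLAST) are their glutamate transporters, and Aqp4 is the water channel of their endfeet. Gja1 (connexin 43) and Gjb6 (connexin 30) form their gap junctions, and Gfap is their intermediate filament. Aldoc is a glycolytic aldolase, Aldh1l1 an enzyme of folate metabolism, and Etnppl a phospholyase that breaks down phosphoethanolamine, an intermediate of membrane phospholipid metabolism.

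The sequences just upstream of the start sites of *Kcnj10* and *Etnppl* are shown because these 2 genes moved in opposite directions. Windows were taken from the RefSeq promoter table (GRCm38.p6) for 9 of the 10 genes. Each line below holds the 250 bases before the start, and capitals mark letters that match a motif on either strand. The motifs searched were the GC box, spelled GGGCGG, the CCAAT box, spelled by its name, the core promoter element TATAAA, part of a glucocorticoid receptor site, spelled AGAACA, and the STAT site TTCNNNGAA. *Kcnj10* lies on the plus strand at chr1:172341210-172374085, and its window at chr1:172340960-172341209. *Etnppl* lies on the plus strand at chr3:130617448-130637521, and its window at chr3:130617198-130617447. No annotated exon falls in either window.
Kcnj10: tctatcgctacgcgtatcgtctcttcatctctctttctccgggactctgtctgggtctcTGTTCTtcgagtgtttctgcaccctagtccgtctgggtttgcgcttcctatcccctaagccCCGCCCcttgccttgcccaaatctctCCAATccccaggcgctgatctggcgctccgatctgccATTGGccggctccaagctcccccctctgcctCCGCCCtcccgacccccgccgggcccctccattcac
Etnppl: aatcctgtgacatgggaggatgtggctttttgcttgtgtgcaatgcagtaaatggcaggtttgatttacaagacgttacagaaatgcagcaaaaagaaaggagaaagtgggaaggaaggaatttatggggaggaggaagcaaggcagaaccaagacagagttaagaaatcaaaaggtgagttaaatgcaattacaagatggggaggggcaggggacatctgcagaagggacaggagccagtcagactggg
The *Kcnj10* window had 17 CpG and a GC content of 62.0%, with 2 matches to the GC box, 2 to CCAAT and 1 to AGAACA. The *Etnppl* window had 1 CpG and a GC content of 46.0%, and none of the searched letters. The table holds another start site of *Etnppl*, whose window, not shown, has 1 match to the GC box and reaches into an exon of the gene. Among 32851 windows of the same length, the median was 6 CpG, and 32.7% held the GC box, 33.8% CCAAT, 16.1% AGAACA, 12.4% TATAAA and 7.02% TTCNNNGAA. These matches are a description of letters, and nothing about a factor was read from them.

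Libraries held 30220122 to 51231439 counts. The member with the fewest, *Etnppl*, had 765 to 2165 counts per mouse, and *Slc1a2* had 100545 to 188185. Values are given as CPM, the counts of a gene per 1000000 counts of its library, scaled by the TMM method. *Zbtb16* itself was at 42.1 to 52.8 CPM in KO and 70.7 to 88.3 CPM in WT mice, lower in every KO mouse, as labelled. A nonsense allele still gives RNA, so this level does not measure the protein. The library labelled KO3 had 1 count in all on 4 Y-linked genes, against 4376 to 8182 in the others, which goes against its label as male. KO5 was the deepest library and held the lowest level of *Kcnj10*, *Gjb6*, *Gfap* and *Aqp4* and the highest of *Etnppl* and *Slc1a3* among all 10 mice. Values without KO3 or KO5 are given below. The RNA integrity number (RIN) was 9.5 or above in 3 mice of each genotype and 8.3 or below in the other 2 of each (KO3, KO5, WT3 and WT4). The astrocyte marker *Sox9*, a transcription factor, was at 16.4 to 26.0 CPM over the 10 mice, and all 10 chosen genes were detected in every mouse.

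Per length of their annotated exons, the glutamate transporter *Slc1a2* had the highest level of the 10 genes in WT mice, at 270.2 ± 14.0 CPM per kilobase (SD, n = 5), followed by the aldolase *Aldoc* at 224.7 ± 10.8 CPM per kilobase. *Slc1a3* came next at 74.5 ± 3.02 and *Kcnj10* at 44.0 ± 3.22 CPM per kilobase. *Gfap* at 28.5 ± 2.11 and *Gjb6* at 24.8 ± 2.34 CPM per kilobase followed, with a difference near the spread between mice. *Aqp4* at 20.3 ± 0.58 and *Gja1* at 19.0 ± 1.42 CPM per kilobase did not differ beyond their spread. *Aldh1l1* stood at 14.5 ± 1.31 and *Etnppl* was lowest at 3.23 ± 0.44 CPM per kilobase. The order depends on the length used. By the longest transcript, *Gja1* moved up to 50.0 and *Gfap* to 45.4 CPM per kilobase, level with or above *Kcnj10* at 44.0.

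In the comparison of the genotypes, *Kcnj10* was lower and *Etnppl* higher in KO mice, and the other 8 genes did not pass the threshold. The threshold was a 5% false discovery rate in edgeR over the 14344 genes tested, in a model of genotype and 3 surrogate variables. These were estimated from the counts and stand for differences between libraries other than genotype. The first of them was 0.874 in KO5 and -0.299 to 0.114 in the other mice. Of all tested genes, 0.244% were called lower and 0.600% higher in KO. Of the 10 genes, 1 was called in each direction, 3 had a negative and 7 a positive log2 fold change, and the median was 0.06, against -0.00 for all tested genes. CPM did not overlap between the genotypes in 2 of the 10 genes and in 1.58% of all tested genes. These counts rest on the contrast by which the genes were chosen.

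**Figure D1:**
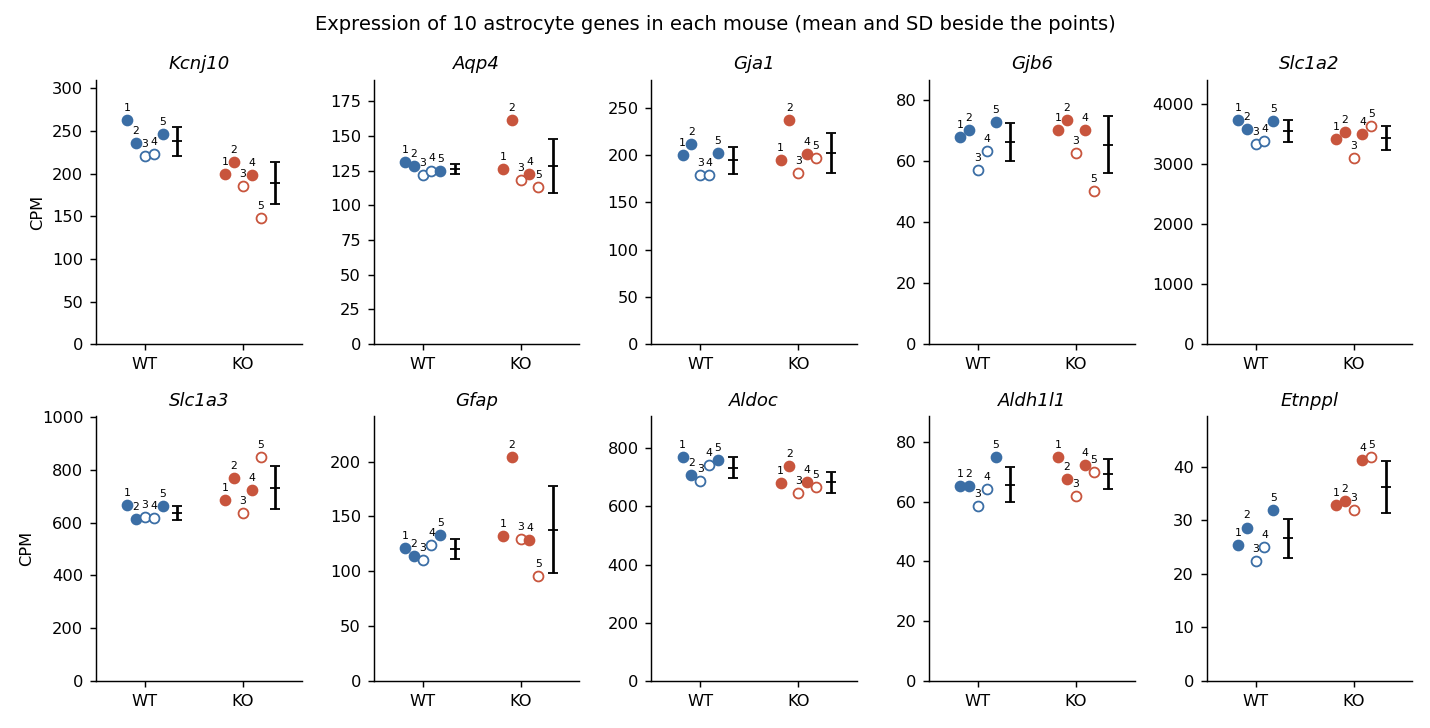
CPM of the 10 genes (vertical axes, from 0) in each WT (blue) and KO (red) mouse, numbered by replicate, with the mean and SD of 5 mice beside the points and open points for RIN 8.3 or below. The KO points of *Kcnj10* sit below every WT point, those of *Etnppl* sit just above, and *Gfap* and *Aqp4* are spread by KO2.

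The potassium channel gene *Kcnj10* was at 199.2, 213.9, 185.8, 198.4 and 148.3 CPM in KO1 to KO5 and at 262.9, 236.3, 220.6, 223.2 and 246.4 CPM in WT1 to WT5. Every KO mouse was below every WT mouse, and KO5 lay furthest down. The means were 189.1 ± 24.9 CPM in KO and 237.9 ± 17.4 CPM in WT mice (SD, n = 5 each), so that KO mice had 79.5% of the WT level. The fitted log2 fold change of *Kcnj10* was -0.27 ± 0.05 (SE). Without KO5 it was -0.20 ± 0.04 and passed the threshold, and without KO3 it was -0.26 ± 0.06 and did not. The call was made in 5 of the 10 fits that left out 1 mouse and was lost without KO1, KO3, KO4, WT3 or WT5, while the sign was negative in all of them. Without surrogate variables the log2 fold change of *Kcnj10* was -0.33 ± 0.08 and did not pass.

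*Aqp4* (chr18:15389496-15410982, minus strand), whose channel shares the endfoot membrane with Kir4.1, was at 126.0, 161.3, 118.1, 122.6 and 112.9 CPM in KO and at 131.5, 128.2, 122.1, 125.0 and 124.6 CPM in WT mice. The WT mice were close together, and the KO mice spread around them with KO2 at the top. KO and WT means were 128.2 ± 19.2 and 126.3 ± 3.60 CPM (SD, n = 5 each). The fitted log2 fold change was 0.00 ± 0.05. The ratio of *Kcnj10* to *Aqp4* counts within a library ran from 1.31 to 1.62 in KO and from 1.78 to 2.0 in WT mice, without overlap. Since *Kcnj10* was chosen with its own separation known, nothing is read from this ratio.

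The connexin gene *Gja1* (chr10:56377330-56402513, plus strand) was at 194.6, 236.9, 181.1, 201.4 and 197.0 CPM in KO and at 200.0, 211.2, 179.1, 179.2 and 202.5 CPM in WT mice. The groups overlapped, with a log2 fold change of 0.05 ± 0.05. *Gjb6* (chr14:57123303-57133611, minus strand), the other astrocyte connexin, was at 70.3, 73.5, 62.8, 70.4 and 50.3 CPM in KO and at 67.9, 70.4, 57.1, 63.5 and 73.1 CPM in WT mice. Here KO5 was the lowest of the 10 mice, the log2 fold change was 0.06 ± 0.05, and its sign turned to -0.02 without surrogate variables. The ratio of *Gja1* to *Gjb6* was 3.13 ± 0.47 in KO and 2.94 ± 0.15 in WT mice (SD over 5 mice each), with overlap.

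Neither glutamate transporter gene passed. *Slc1a2* (chr2:102658659-102790784, plus strand) was at 3418, 3527, 3100, 3493 and 3637 CPM in KO and at 3732, 3582, 3336, 3379 and 3714 CPM in WT mice. The groups overlapped, with a log2 fold change of -0.05 ± 0.04. *Slc1a3* (chr15:8634124-8710764, minus strand) was at 683.8, 767.2, 637.6, 723.8 and 849.1 CPM in KO and at 667.1, 614.9, 622.0, 616.0 and 661.5 CPM in WT mice. All 5 KO mice were above the WT mean, but KO3 lay within the WT range. The log2 fold change of *Slc1a3* was 0.14 ± 0.04, which did not pass with all 10 mice and passed in 4 of the 10 fits that left out 1 mouse (KO2, KO5, WT1 or WT5). The ratio of *Slc1a2* to *Slc1a3* within a library was 4.71 ± 0.28 in KO and 5.58 ± 0.17 in WT mice (SD over 5 mice each). Its ranges, 4.28 to 5.00 and 5.36 to 5.83, did not overlap. Both genes were chosen with their counts known, and the share of other gene pairs that separate is not given. The separation was not tested. At least 166 exon bases of *Slc1a2* overlap an antisense gene. No source used here says whether strand was counted, so reads from there cannot be assigned.

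*Gfap* (chr11:102887336-102900912, minus strand), which rises in reactive astrocytes, was at 131.9, 204.4, 129.1, 128.5 and 96.1 CPM in KO and at 120.9, 113.7, 110.3, 123.5 and 133.0 CPM in WT mice. KO2 was the highest and KO5 the lowest of the 10 mice, so that the coefficient of variation was 28.9% in KO and 7.39% in WT mice. The log2 fold change of *Gfap* was 0.15 ± 0.06 and did not pass. Without KO5 it was 0.26 ± 0.04 and passed, and without KO2 it was 0.06 ± 0.06 and did not.

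Among the metabolic genes, *Aldoc* (chr11:78322968-78327781, plus strand) was at 679.4, 738.6, 644.9, 683.1 and 666.2 CPM in KO and at 770.6, 707.0, 686.5, 742.7 and 758.3 CPM in WT mice. The groups overlapped, with a log2 fold change of -0.11 ± 0.04. *Aldh1l1* (chr6:90486427-90600203, plus strand) was at 74.9, 67.6, 61.8, 72.1 and 69.8 CPM in KO and at 65.2, 65.1, 58.6, 64.3 and 75.0 CPM in WT mice. The groups of *Aldh1l1* overlapped as well, with a log2 fold change of 0.11 ± 0.05. Other annotated genes, 1 of them antisense, cover at least 332 of its exon bases.

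*Etnppl* was at 32.8, 33.5, 31.9, 41.3 and 41.8 CPM in KO and at 25.4, 28.6, 22.4, 25.0 and 31.8 CPM in WT mice. The KO values fell into 3 near the top of the WT range and 2 well above it, and the lowest KO mouse stood just above the highest WT mouse. Scaled by library totals alone, these 2 mice changed places, at 31.7 CPM in KO3 and 32.1 CPM in WT5. The means were 36.3 ± 4.86 CPM in KO and 26.6 ± 3.65 CPM in WT mice (SD, n = 5 each), so that KO mice had 136.2% of the WT level. The fitted log2 fold change was 0.45 ± 0.05. It was 0.44 ± 0.06 without KO5 and 0.43 ± 0.06 without KO3, and passed in all 10 fits that left out 1 mouse. Without surrogate variables the log2 fold change of *Etnppl* was 0.45 ± 0.10 and did not pass.

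**Figure D2:**
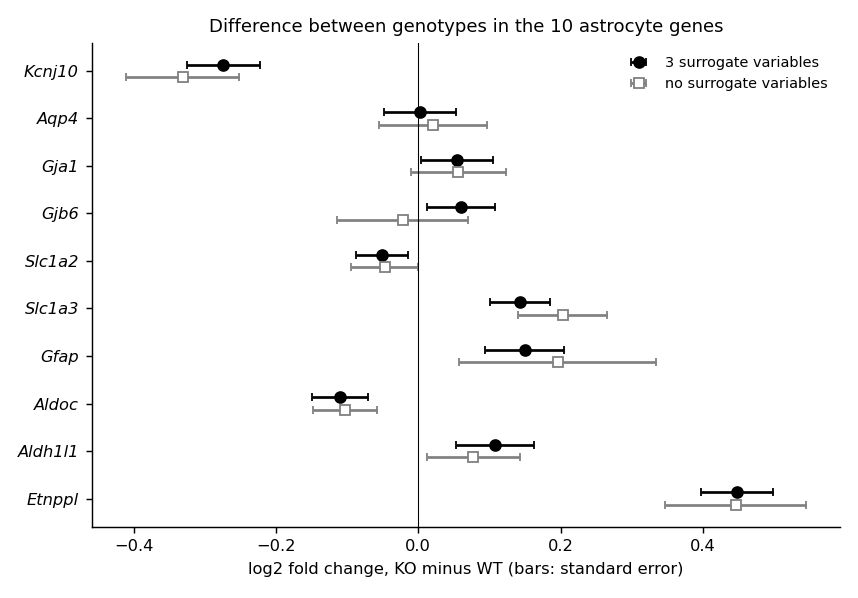
Log2 fold change between KO and WT mice (horizontal axis) with its standard error for each gene, with 3 surrogate variables (black circles) and with none (open squares), each from 5 KO and 5 WT mice. *Kcnj10* lies at -0.27 and *Etnppl* at 0.45, and the other 8 lie between -0.11 and 0.15 with surrogate variables.

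Since *Kcnj10* and *Etnppl* come from the same library, their ratio does not depend on how the library was scaled. It was 6.07, 6.39, 5.82, 4.81 and 3.54 in KO1 to KO5 and 10.3, 8.25, 9.87, 8.93 and 7.74 in WT1 to WT5. The highest KO ratio was below the lowest WT ratio, with means of 5.32 ± 1.16 and 9.03 ± 1.08 (SD, n = 5 each). Both genes contribute to this separation, which follows from the choice of the genes and was not tested.

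**Figure D3:**
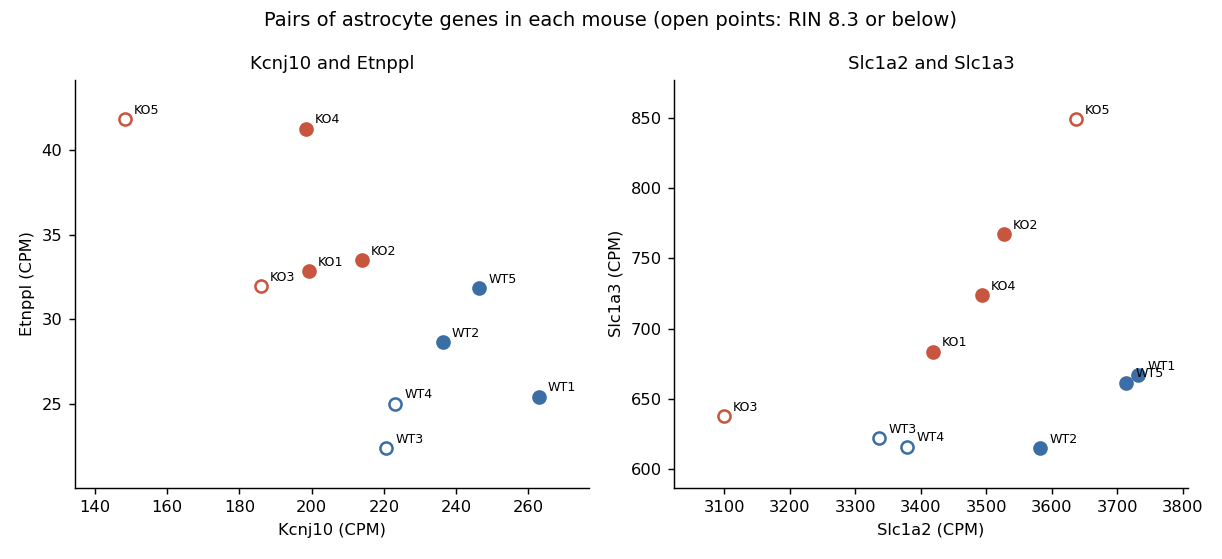
CPM of *Etnppl* against *Kcnj10* (left) and of *Slc1a3* against *Slc1a2* (right), 1 point per mouse (WT blue, KO red, open for RIN 8.3 or below, axes not from 0). In the left panel the KO mice lie up and to the left of the WT mice, with KO5 at the far corner, and in the right panel *Slc1a3* is higher in KO mice at a like level of *Slc1a2*.

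How the 10 genes vary from mouse to mouse within a genotype is separate from the difference between the genotypes. After the genotype means were subtracted from log2(CPM + 1), 39 of the 45 gene pairs had a positive Pearson correlation over the 10 mice, with a median of 0.49. These points share library, dissection and depth, and the values are given as a description. No share of positive pairs among all tested genes stands beside them. The channel gene *Kcnj10* varied most like the connexin gene *Gjb6* (r = 0.91, Spearman's rho = 0.83), and also with *Gfap* (r = 0.79, rho = 0.66) and *Aqp4* (r = 0.71, rho = 0.73). *Aqp4* and *Gfap* had r = 0.91 with rho = 0.61, a pair in which KO2 is far above the rest. The transporters *Slc1a2* and *Slc1a3* formed another pair (r = 0.82, rho = 0.85). *Etnppl* varied with *Slc1a2* (r = 0.69, rho = 0.77) and *Aldh1l1* (r = 0.69), and not with *Kcnj10* (r = -0.20, rho = 0.01). KO5 bears on these values, since the median over the 45 pairs was 0.71 without it.

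**Figure D4:**
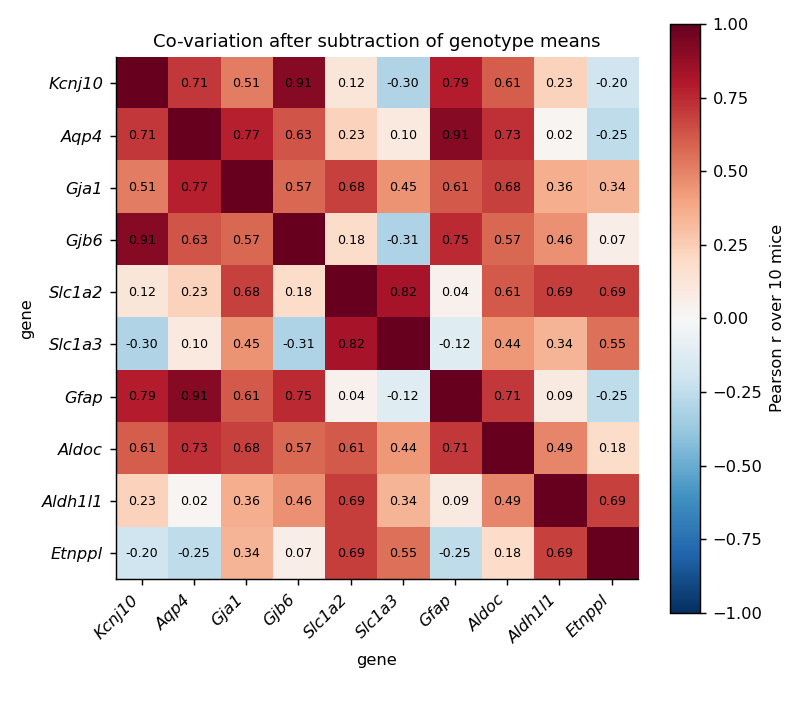
Pearson correlation of log2(CPM + 1) for each pair of the 10 genes over 10 mice after subtraction of the genotype means (red positive, blue negative). *Kcnj10*, *Aqp4*, *Gjb6* and *Gfap* form a block of 0.63 to 0.91. *Etnppl* correlates at 0.69 with *Slc1a2* and *Aldh1l1*, and weakly, at -0.20, -0.25 and -0.25, with *Kcnj10*, *Aqp4* and *Gfap* (Spearman's rho 0.01, -0.13 and 0.02).

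Markers of oligodendrocytes moved along with several of the 10 genes. A score of 16 oligodendrocyte genes, taken within genotypes over the 10 mice, correlated with *Kcnj10* at r = 0.72, with *Aqp4* at 0.89, with *Gfap* at 0.88, with *Gja1* at 0.80, with *Aldoc* at 0.79 and with *Gjb6* at 0.73. It correlated at 0.33 with *Slc1a2*, 0.19 with *Aldh1l1*, 0.15 with *Slc1a3* and 0.09 with *Etnppl*. Without KO5 these became 0.66, 0.24, 0.83 and 0.38, and that of *Kcnj10* 0.67, so the low value of *Slc1a3* rests on that library. *Kcnj10* is known to be expressed in oligodendrocytes too. A score of 40 astrocyte identity genes correlated with *Kcnj10* at 0.44, and at 0.86 without KO5, with *Aldoc* at 0.93 and with *Etnppl* at 0.23. None of the 16 oligodendrocyte genes passed in the genotype comparison at the 5% false discovery rate in edgeR, 7 had an unadjusted p under 0.05, 14 had a negative log2 fold change, and the median was -0.11. Among all tested genes, 10.6% had an unadjusted p under 0.05 and 51.9% a negative log2 fold change. Their summed level was 6327 to 9208 CPM in KO and 6607 to 8264 CPM in WT mice. The oligodendrocyte score, here with the genotype means left in, was also fitted in place of the surrogate variables. The log2 fold change of *Kcnj10* was then -0.24 ± 0.07 and that of *Etnppl* 0.46 ± 0.11, and neither passed. With genotype alone in the model they were -0.33 ± 0.08 and 0.45 ± 0.10, and neither passed there. What the oligodendrocyte RNA contributes to the difference in *Kcnj10* was not tested beyond the fit with this score.

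Markers of striatal neurons, which a PFC dissection can carry along, had 0 of 11 tested genes called by edgeR, 5 with an unadjusted p under 0.05 and a median log2 fold change of 0.16. Their summed level was 500.1 to 693.1 CPM in KO and 468.7 to 805.1 CPM in WT mice. A score of these genes, taken within genotypes over the 10 mice, correlated with *Etnppl* at r = 0.83 (rho = 0.85, and r = 0.81 without KO5), the highest among the 10 genes, and with *Kcnj10* at -0.10 (0.33 without KO5). The striatal score, with the genotype means left in, was likewise fitted in place of the surrogate variables. The log2 fold change of *Kcnj10* was then -0.32 ± 0.09 and that of *Etnppl* 0.32 ± 0.08, and neither passed. With genotype alone in the model they were -0.33 ± 0.08 and 0.45 ± 0.10, and neither passed there. What striatal RNA contributes to the difference in *Etnppl* was not tested beyond the fit with this score. No gene was called among the markers tested for microglia (10 genes), endothelial and mural cells (12), neurons (15), oligodendrocyte precursors (8) and ependymal cells and choroid plexus (8). At an unadjusted p under 0.05 these lists had 1, 1, 6, 1 and 0 genes, where all tested genes had 10.6%. Of 10 meningeal fibroblast markers, 1 rose, *Postn*, a matrix protein, by 1.11 ± 0.16 on the log2 scale (edgeR adjusted p = 0.00266). It averaged 2.47 ± 0.51 CPM in the WT and 5.55 ± 1.20 CPM in the KO group (SD over 5 mice each). Of these 10 markers, 7 had a negative log2 fold change, with a median of -0.06. Scores of these other cell types were also set against the 10 genes within genotypes. For endothelial and mural cells r was -0.24 (*Etnppl*) to 0.74 (*Aldoc*), and for neurons -0.62 (*Gja1*) to 0.25 (*Aldh1l1*). For microglia it was -0.27 to 0.56 and for oligodendrocyte precursors -0.08 to 0.60. Meningeal fibroblasts had -0.20 to 0.53, and ependymal cells and choroid plexus -0.0009 to 0.43. Without KO5, neurons had -0.90 to 0.28 and microglia -0.14 to 0.87. The part of these cells in the values of the 10 genes was not tested.

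The genes whose variation within genotypes was nearest to that of *Kcnj10*, among 9921 genes with a mean above 10 CPM, were *Cpm*, *Zbtb7b*, *Cntn2*, *Ppp1r16b* and *Nt5dc3*. Their Pearson correlations with *Kcnj10* over the 10 mice were 0.97, 0.97, 0.97, 0.97 and 0.95, and stayed between 0.91 and 0.97 without the 2 mice farthest from the median (KO5 and WT1). For *Etnppl* the nearest were *Fam214a*, *Chmp4b*, *Luzp2*, *Mccc2* and *Gpm6b*, at 0.96, 0.95, 0.93, 0.93 and 0.93. Without KO5 and WT3 these were 0.90 to 0.98. None of the 10 nearest genes was itself one of the 10 astrocyte genes or was called between the genotypes, and they are the top of a long list picked from the same mice.

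RNA integrity was not used to choose the genes, so the contrast of libraries with low and high RIN was tested. In a model of genotype and RIN class, all 10 genes had a lower fitted level in the 4 libraries of RIN 8.3 or below than in the 6 of 9.5 or above, as did 50.2% of all tested genes. The connexin gene *Gjb6* had the largest difference among the 10, with means of 58.4 CPM at low and 70.9 CPM at high RIN and a log2 difference of -0.28 ± 0.06 (SE, edgeR adjusted p = 0.0697). *Kcnj10* had means of 194.5 and 226.2 CPM and a log2 difference of -0.23 ± 0.06 (edgeR adjusted p = 0.123). Without KO5 the log2 difference was smaller, -0.15 for *Kcnj10* and -0.21 for *Gjb6*. *Gfap* differed by -0.26 ± 0.13 and *Gja1* by -0.17 ± 0.05 (edgeR adjusted p = 0.481 and 0.195). *Slc1a3* had the smallest difference, -0.01 ± 0.06, and its sign turned without KO2 and without KO3. None of the 10 genes was called by edgeR, and 5 had an unadjusted p under 0.05. Among all tested genes, edgeR called 0.335%, and 1546 had an unadjusted p under 0.05. DESeq2 called *Kcnj10* and *Gjb6* of the 10 genes, and 269 of all tested genes. Without KO3, edgeR called *Gjb6*. The oligodendrocyte markers went the same way, with 15 of 16 lower at low RIN and a median of -0.21, as did 29 of the 40 astrocyte identity genes, with a median of -0.07.

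RIN class was balanced over the genotypes. In 3 of the 10 genes the groups did not overlap in either class and differed in the same direction, as in 3.76% of all tested genes, and with 2 against 2 mice little is needed for this. The genes were chosen by this contrast, and nothing is read from the count. *Kcnj10* in KO mice was at 82.0% of WT among the mice of high RIN (3 against 3) and at 75.3% among those of low RIN (2 against 2). *Etnppl* was at 125.3% and 155.8%, and *Slc1a3* at 111.9% and 120.1%. The test of whether the genotype difference depends on RIN class called 0% of the 14344 genes in edgeR, with 505 genes and none of the 10 at an unadjusted p under 0.05. With mice of high RIN alone, *Kcnj10* had a log2 fold change of -0.28 ± 0.06 and *Etnppl* of 0.33 ± 0.10, and neither passed.

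To see whether the rest of the astrocyte programme moved with these genes, 160 further genes were taken in 8 lists by function. Of 148 tested, 2 fell and 1 rose in KO mice at an edgeR adjusted p under 0.05, 33 had an unadjusted p under 0.05 (1522 of the 14344 genes), and the median log2 fold change was -0.02. That is 1.35% lower and 0.676% higher, against 0.244% and 0.600% of all tested genes, and 6 of the 8 lists had no called gene.

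Among the 40 identity genes, *Sparc*, a secreted matrix protein also made by endothelial cells and microglia, rose (in which cells was not tested). It was at 177.7, 191.3, 174.9, 155.0 and 218.7 CPM in KO and at 150.6, 120.9, 135.7, 126.6 and 136.4 CPM in WT mice. Every KO mouse was above every WT mouse, with means of 183.5 ± 23.6 and 134.0 ± 11.3 CPM (SD over 5 mice each) and a log2 fold change of 0.37 ± 0.06 (edgeR adjusted p = 0.00759). *Sparc* also passed without surrogate variables (0.45 ± 0.08, edgeR adjusted p = 0.0349), and among the fits without 1 mouse it was lost in 1, without WT3. *Id3*, an inhibitor of basic helix-loop-helix transcription factors, fell. It was at 14.6, 18.1, 18.5, 19.2 and 21.5 CPM in KO and at 23.4, 18.5, 23.8, 28.2 and 26.2 CPM in WT mice, where WT2 lay among the KO mice. Its log2 fold change was -0.51 ± 0.09 (edgeR adjusted p = 0.011), and the call was lost without KO1, WT3 or WT4 and without surrogate variables. The identity genes with the highest levels, *Sparcl1*, *Cst3* and *Ndrg2*, had log2 fold changes of -0.07, -0.02 and -0.14 and did not pass.

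In the connexin and pannexin list, 11 of 20 genes were tested, 10 had a negative log2 fold change, the median was -0.20, and 1 fell. This was *Gjc3* (connexin 29), a gene of oligodendrocytes rather than astrocytes, at 51.8 ± 10.4 CPM in KO and 61.3 ± 5.64 CPM in WT mice (SD over 5 mice each; log2 fold change -0.25 ± 0.06, edgeR adjusted p = 0.0407). The groups overlapped, and the call of *Gjc3* held in 3 of the 10 fits without 1 mouse. With the oligodendrocyte score in place of the surrogate variables its log2 fold change was -0.09 ± 0.06, and with genotype alone -0.24 ± 0.11. *Panx2* and *Panx1* had -0.09 and 0.02 and did not pass.

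Nothing was called among the 15 genes for potassium and water handling, 4 of which had an unadjusted p under 0.05 in edgeR. Among its abundant genes, the sodium pump subunit *Atp1b2* and the dystrobrevin *Dtna* had log2 fold changes of -0.04 and -0.08. *Kcnj16*, whose product (Kir5.1) pairs with Kir4.1, was at 23.4 ± 5.10 CPM in KO and 27.4 ± 2.75 CPM in WT mice (SD over 5 mice each), with a log2 fold change of -0.23 ± 0.08 (edgeR adjusted p = 0.276). The bicarbonate transporter gene *Slc4a4* was at 133.0 ± 10.5 and 150.8 ± 17.2 CPM (-0.17 ± 0.04, edgeR adjusted p = 0.0986). *Kcnj16* and *Slc4a4* were singled out after their values were seen. Of the other inward rectifier genes, 11 of 14 were tested and none was called, with 2 at an unadjusted p under 0.05. Of these 11 genes, 10 had a negative log2 fold change, against 51.9% of all tested genes, and the median was -0.05. The most abundant, *Kcnj9*, had -0.02 ± 0.04, and differences between *Kcnj10* and its relatives were not tested.

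In the glutamate, GABA and glycine list none of 12 genes was called and 4 had an unadjusted p under 0.05 in edgeR. Glutamine synthetase (*Glul*) had a log2 fold change of 0.04 ± 0.03, and *Glud1*, glutamate dehydrogenase, of -0.02 ± 0.04. The further Slc1 transporters, neuronal *Slc1a1* among them, had 0 of 4 tested genes called and 0 at an unadjusted p under 0.05. The ethanolamine phospholipid list, in which *Etnppl* acts, had 0 of 15 called and 0 at an unadjusted p under 0.05. *Etnk1*, the kinase that makes phosphoethanolamine, was at 472.8 ± 19.1 CPM in KO and 484.4 ± 11.3 CPM in WT mice (SD over 5 mice each). *Gpcpd1* and *Ept1* had log2 fold changes of -0.05 and 0.06.

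Of the cytoskeletal and reactive genes, 18 of 20 were tested, none was called, 2 had an unadjusted p under 0.05 in edgeR, and the median was 0.06. *S100b*, *Synm* and *Stat3* had log2 fold changes of 0.08, 0.08 and 0.12. None of 21 genes for glycolysis, glycogen, folate and serine was called, with 4 at an unadjusted p under 0.05, and *Aldoa*, *Ldhb* and *Ldha* had 0.04, -0.04 and -0.02. None of 16 lipid genes was called, again with 4 at an unadjusted p under 0.05, and *Apoe*, *Clu* and *Acsl6* had -0.02, 0.04 and -0.05.

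**Figure D5:**
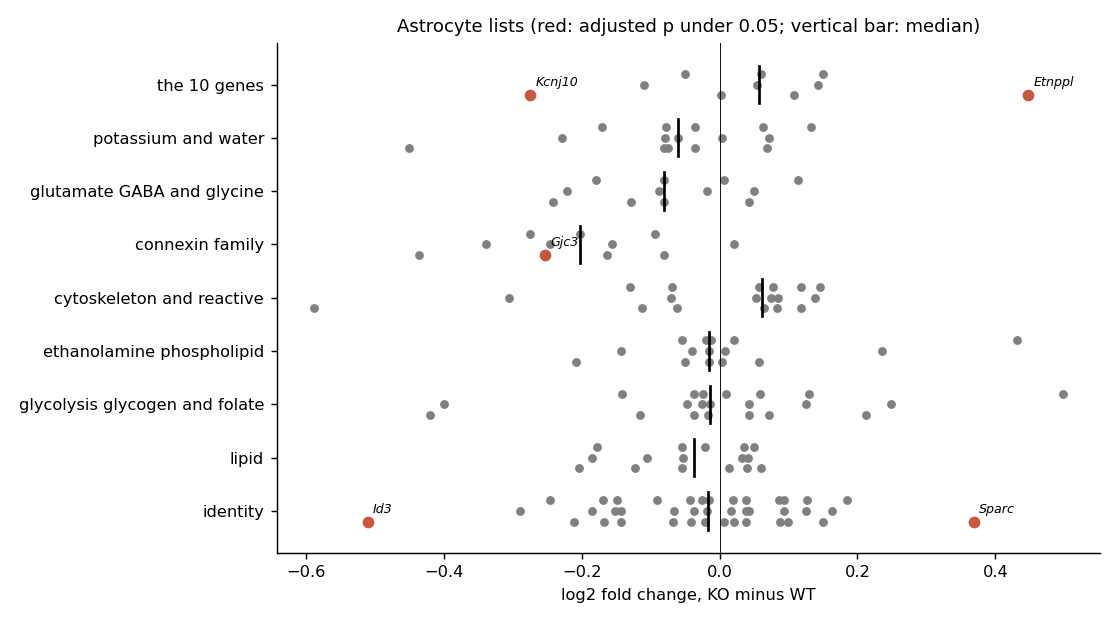
Log2 fold change between KO and WT mice (horizontal axis) for the 10 genes and for each tested gene of 8 further astrocyte lists, with the list's median as a vertical bar and genes of adjusted p under 0.05 in edgeR in red. *Gjc3*, *Id3* and *Sparc* are the called genes of the further lists, and every list's median lies between -0.20 and 0.06.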

How the data were processed

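Counts per gene were analysed for the PFC of 5 KO and 5 WT mice, 1 library each, grouped by the labels. The authors aligned 101 bp read pairs to mm10 with STAR (2.7.1a), kept uniquely mapped reads and deposited HTSeq (0.9.1) counts of exonic reads per protein-coding gene (Gencode M21), not normalized, for 22000 genes. Reads shared with a near-identical gene are thus lost. The strand setting is not given in the sources used here. Library totals were 30220122 to 51231439, and 3 counts were 0.0586 to 0.0993 CPM, a floor for counting error only.

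The 10 genes and all lists were chosen with earlier results of these data known. Differences were tested with edgeR (4.0.16) in R (4.3.3). Its low-count filter kept 14344 genes, counts were scaled by TMM, and quasi-likelihood p-values were adjusted over these genes by Benjamini-Hochberg, with 0.05 as the threshold. Covariates beside genotype were 3 surrogate variables estimated by sva (3.50.0) on log2(CPM + 1), seed 1. RIN class (9.5 or above against the rest) and its interaction with genotype were fitted without surrogate variables. Correlations used log2(CPM + 1) minus genotype means. A marker score is the mean of its genes' log2(CPM + 1). Scripts were tested on simulated counts. The labels do not say more of the mice than 1 library each, and p-values measure the spread between these libraries.

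Named from the lists were called genes and the 3 with the highest CPM in WT. Alternatives were 0, 1 or 2 surrogate variables, RIN, marker scores or the replicate number in their place, DESeq2 (1.42.0), limma (3.58.1), other scalings, no filter, RIN 9.5 or above alone and leaving out each mouse. Positions are those of Gencode M21 (GRCm38), and promoters those of RefSeq (GRCm38.p6). Tables and plots were made in Python (3.11.15) with pandas (2.3.3), matplotlib (3.10.9) and numpy (2.4.6). *Drd1* and *Selenoi* of the lists were not analysed here, and single values of some list genes are not reported here.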

Additional observations from a re-analysis of the deposited data

Results flagged for a closer look

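*Aqp4* in KO2, at 161.3 CPM, stood apart from the other 4 KO mice, the nearest of which was at 126.0 CPM. The gap was 0.729 of the range of the group, above Dixon's 95% critical value of 0.71 for 5 samples. It is the only one of 20 groups (10 genes in 2 genotypes) that did, and chance flags about 1 in 20. In the same mouse *Gfap* was at 204.4 and *Gja1* at 236.9 CPM, each the highest of the 10 mice, and the oligodendrocyte markers summed to 9208 CPM, the highest too.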

How the results depend on the processing

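Of the 10 genes, *Kcnj10* kept a negative and *Etnppl* a positive log2 fold change in 16 alternatives and in the 10 fits without 1 mouse, but were called in 7 and 8 of the 16. With all genes, 121 were called, with 1 of the 10 astrocyte genes lower, 1 higher and 3 of the further lists. With 0, 1 and 2 surrogate variables 30, 34 and 57 genes were called, with RIN 38, with the striatal, oligodendrocyte and astrocyte identity scores 7, 17 and 18, with DESeq2 233, with limma on log2(CPM + 1) 8, on log2(CPM + 0.1) 0, and with RIN 9.5 or above alone 1. A lower call among the 10 genes went to 0 with 0 or 1 surrogate variables, each score, the replicate block, either limma fit and RIN 9.5 or above alone. A higher call went to 0 with 0 or 1 surrogate variables, RIN, each score, limma with 0.1 and RIN 9.5 or above alone. In the further lists 1 gene was left with 0 or 1 surrogate variables, RIN, the astrocyte identity score or the replicate block, 0 with the striatal or oligodendrocyte score, either limma fit or RIN 9.5 or above alone, and 5 with DESeq2. The causes were not tested, other than that RIN 9.5 or above alone has fewer mice.

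With the replicate number as a block, 24 genes were called, with *Etnppl* (log2 fold change 0.44) among them and not *Kcnj10* (-0.34). Mice of the same number differ, and the deviations of same-numbered mice correlated at 0.17, -0.0018, 0.12, -0.11 and 0.10. KO1 and KO5 correlated best with the WT mouse of their own number, and KO2, KO3 and KO4 with one of another number. Whether the numbers pair the mice cannot be told from these values.

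Leaving out 1 mouse gave 39 to 248 genes, 0 to 1 of the 10 genes lower, 1 to 3 higher, 0 to 8 in the further lists and a median pair correlation of 0.41 to 0.71. For RIN it gave 1 to 73 genes (48 with all mice) and 0 to 1 of the 10. Without a filter RIN had 121 genes and 1 of the 10, with DESeq2 269 and 2.

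*Gjb6* turned negative with no surrogate variables (-0.022), RIN (-0.0234), the striatal score (-0.0336), the astrocyte identity score (-0.0131) and the replicate block (-0.0278). *Aqp4* turned with upper quartile scaling (-0.00077) and library totals (-0.0089) and without KO2, WT3 or WT4 (leaving out 1 mouse gave -0.0303 to 0.0747), and *Slc1a2* without WT5 (-0.0669 to 0.0048).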
